A study of Mus musculus with 12 samples.

Results

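The members described here are 36 genes that mark 2 tissues a dissected tumour can carry with it, skeletal muscle (24 genes) and fat (12 genes). They were chosen by name, for their known place in muscle fibres or adipocytes, when earlier results of these data were known. Among the probe sets with that gene as their only symbol, the brightest on average over all arrays stands for each member. All 24 muscle genes and 10 of the 12 fat genes had such a probe set, so 34 members were measured among 18193 genes in all. Cfd and Plin1 were not analysed here.

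Skeletal muscle fibres contract when myosin heads of the thick filament pull on the actin of the thin filament, anchored at the Z disc. Calcium released from the sarcoplasmic reticulum binds troponin C and opens the thin filament to myosin. Adipocytes store triglyceride in lipid droplets coated by perilipins and CIDE proteins, take up fatty acids through lipoprotein lipase, and secrete hormones such as adiponectin and leptin. The transcripts of both tissues are abundant in their own cells and low or absent in lung epithelium, with Fabp4, Lpl and Scd1 as more widely expressed exceptions.

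The study measured total RNA from 12 mouse tumour samples of 3 lung adenocarcinoma lines, with 4 arrays each. All 3 lines came from p53R172H∆g/+ K-rasLA1/+ mice, which carry a mutant p53 allele and a latent oncogenic K-ras allele. The line 393P was grown from a primary lung tumour and 393LN from a mediastinal lymph node, both of mouse 393, and 344SQ from a subcutaneous site of mouse 344. Each line is a mass population rather than a clone, and the labels call 344SQ highly metastatic, 393LN intermediately metastatic and 393P non-metastatic. The design text says that the tumours were syngeneic, that neighbouring tissue was cut away before freezing, and that part of each tumour was examined by a pathologist. The site where they grew, the age of the hosts and any treatment are not given in the sources used here. Mouse of origin and line cannot be told apart between 344SQ and the other two. The labels do not say that the 4 arrays of a line came from separate mice, so the p-values measure only the spread between these samples. Replicate numbers follow the order of deposition and pair nothing. The epithelial keratins Krt8 and Krt18 were bright in every line, at 13.81 to 13.98 and 14.19 to 14.28 (line means). Nkx2-1, a factor of lung epithelium, was near the floor, at 4.15 to 4.24. Sftpc, a surfactant gene of lung epithelium, was above it, at 6.73 to 7.13.

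Every level below is a log2(intensity + 16) value, on which the floor of the deposited table is 4.09 and 1 unit is close to a doubling for a bright gene. A difference between arrays or lines is given in the same log2 units. Levels of different genes are not set against each other, because probe sets differ in brightness. Array medians of log2 intensity lay between 7.19 and 7.29.

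Muscle genes were high on 1 of the 12 arrays, 393LN replicate 1, and fat genes on another, 344SQ replicate 3. The mean over the 24 muscle members was 7.57, 7.01, 6.80 and 7.54 on the 4 344SQ arrays. It was 8.65, 7.15, 7.18 and 7.03 on the 393LN arrays, and 7.05, 7.20, 7.61 and 7.33 on the 393P arrays. The 393LN replicate 1 array lay 1.48 above the median of the other 11, a 2.79-fold difference, and the 3 lines overlapped. The mean over the 10 fat members was 7.94, 7.69, 9.14 and 7.55 on the 344SQ arrays. The 393LN arrays gave 8.24, 7.56, 8.25 and 8.09, and the 393P arrays 8.34, 7.97, 7.40 and 7.58. Here 344SQ replicate 3 lay 1.19 above the median of the other 11 (2.29-fold), and the lines again overlapped. In these bulk samples, more cells of a type and more RNA per cell cannot be told apart.

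**Figure D1:**
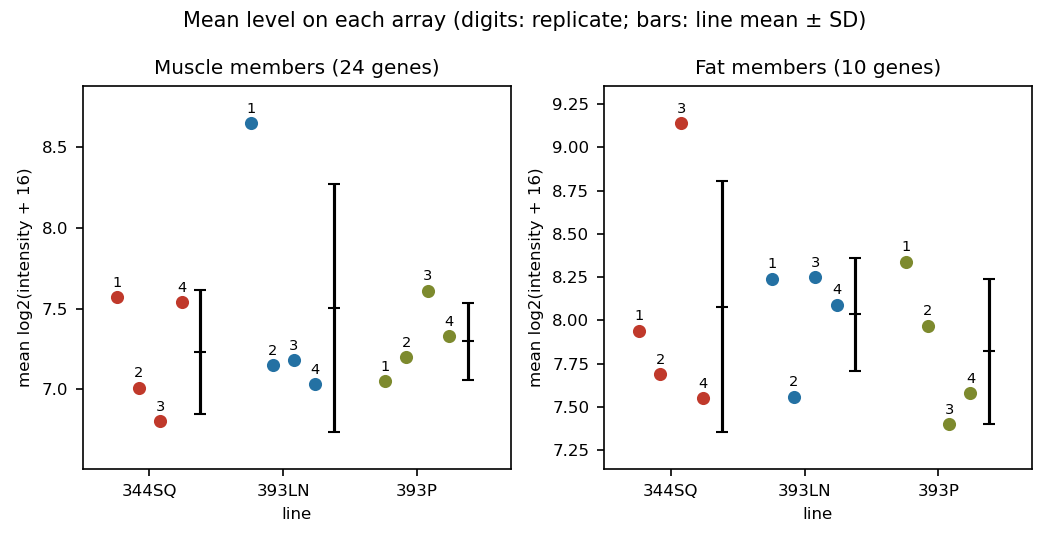
Mean log2(intensity + 16) of the 24 muscle members (left) and the 10 measured fat members (right) on each array, by line. Points are arrays with their replicate number, and bars give the line mean ± SD (n = 4). The highest muscle mean, 8.65, is 393LN replicate 1 and the highest fat mean, 9.14, is 344SQ replicate 3.

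The highest muscle array was the same for nearly all muscle members. Of the 24, 23 had their highest level on 393LN replicate 1, where 11.0% of all 18193 genes had theirs. All 24 stood above their own 12-array mean there. The exception was Pvalb, the calcium buffer parvalbumin, highest at 8.57 on 393P replicate 1. Of the 10 fat members, 7 were highest on 344SQ replicate 3, where 7.61% of all genes were. The 7 include Pck1, a near tie at 6.98 with 344SQ replicate 2. The other 3 were Lep, Retn and Cidea. The muscle mean of 344SQ replicate 3, the array highest for fat, was the lowest of the 12, at 6.80.

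**Figure D2:**
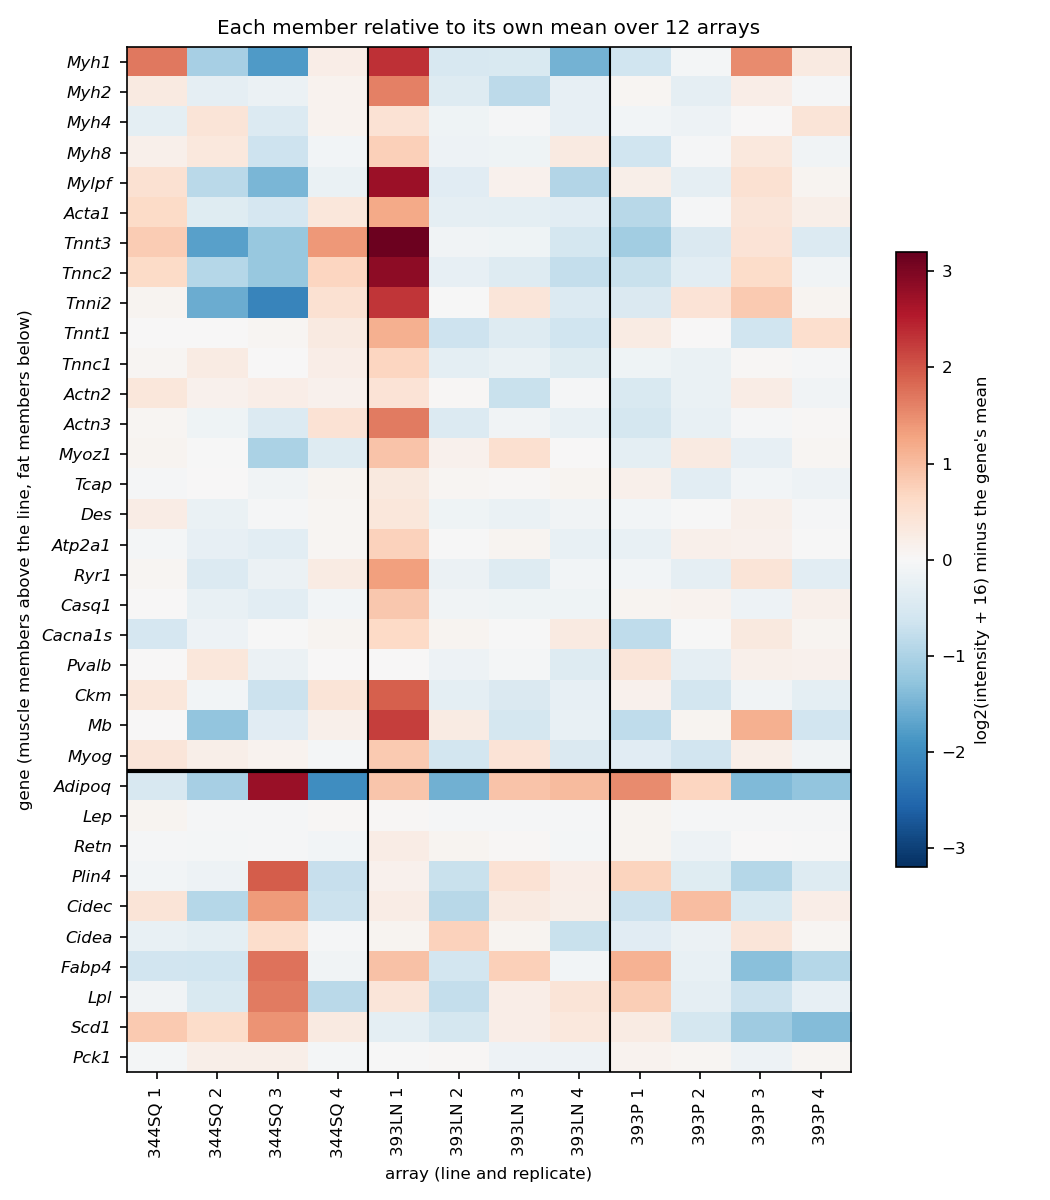
Level of each measured member on each of the 12 arrays as a difference from that gene's mean over the 12 arrays, in log2 units (colour scale), with genes in rows by role and arrays in columns by line. The 393LN replicate 1 column is above the mean for all 24 muscle rows, and the 344SQ replicate 3 column holds the highest value of 7 of the 10 fat rows.

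The stretch of DNA just before the transcription start was read for members with an entry in the RefSeq promoter table (build GRCm38.p6). Of the 36 members, 27 matched, 19 of muscle and 8 of fat. The 250 bases before the start were searched on both strands for 6 motifs. CAGCTG is an E-box bound by the MyoD family of muscle factors and reads the same on both strands. It was found in 9 of the 19 muscle members (47.4%) and 3 of the 8 fat members (37.5%), against 14.7% of the 27025 genes in the table. The MEF2 site was in 4 muscle members (21.1%), Myh1, Myh4, Myh8 and Pvalb, against 3.42% of all genes. The CArG box, bound by serum response factor, was in 2 (10.5%), Myh4 and Acta1, against 1.62%. Neither of these was in a fat member's window. TATAAA, the TATA box, was in 5 muscle members (26.3%) and 14.3% of all genes, and it overlaps the MEF2 site in Myh1, Myh4 and Myh8. AGGTCA, a nuclear receptor half-site, was in 3 muscle members (15.8%) and no fat member, against 15.8% of all genes. TTGCNCAA, bound by the C/EBP factors of adipocyte differentiation, was in 3 fat members (37.5%), Lep, Plin1 and Cidec, and in 2 muscle members (10.5%), against 2.99% of all genes. These matches describe letters in a window and no binding was measured. Their part in the levels across arrays was not tested.

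The 120 bases before the start are shown for 4 muscle members and 2 fat members that hold one of these motifs near the start, with the motif in capitals and each read 5′ to 3′ on the gene's own strand. Mylpf is on chr7:127211488-127211607 (plus strand), Atp2a1 on chr7:126463074-126463193 (minus), Myh4 on chr11:67237692-67237811 (plus) and Acta1 on chr8:123894776-123894895 (minus). Adipoq is on chr16:23146416-23146535 (plus) and Cidec on chr6:113435761-113435880 (minus). The capitals are the CArG box in Acta1 and CAGCTG in the others, beginning 51 bases before the start in Mylpf, 55 in Atp2a1, 67 in Myh4, 73 in Acta1, 61 in Adipoq and 69 in Cidec.
Mylpf: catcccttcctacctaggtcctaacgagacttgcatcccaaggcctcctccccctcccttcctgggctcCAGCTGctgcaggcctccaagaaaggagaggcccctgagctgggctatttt
Atp2a1: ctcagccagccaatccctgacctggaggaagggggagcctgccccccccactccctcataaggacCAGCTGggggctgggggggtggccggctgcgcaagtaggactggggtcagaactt
Myh4: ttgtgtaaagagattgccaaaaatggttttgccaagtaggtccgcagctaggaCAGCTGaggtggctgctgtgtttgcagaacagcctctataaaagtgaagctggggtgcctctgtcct
Acta1: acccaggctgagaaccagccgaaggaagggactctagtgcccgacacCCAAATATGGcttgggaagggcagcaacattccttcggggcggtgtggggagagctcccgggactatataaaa
Adipoq: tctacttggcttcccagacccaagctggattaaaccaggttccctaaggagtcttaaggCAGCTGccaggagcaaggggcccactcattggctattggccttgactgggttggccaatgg
Cidec: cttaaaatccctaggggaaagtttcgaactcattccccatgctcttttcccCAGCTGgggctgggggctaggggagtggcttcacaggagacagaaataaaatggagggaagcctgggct

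Thick-filament genes showed some of the widest swings among arrays. Myh1, the fast myosin heavy chain of type IIx fibres, was 10.18, 7.42, 6.68 and 8.70 on the 344SQ arrays. It was 10.83, 7.96, 8.0 and 6.98 on the 393LN arrays and 7.85, 8.41, 10.00 and 8.77 on the 393P arrays. High levels thus appeared on 1 array of each line, and on 393LN replicate 1 Myh1 was 2.83 above the median of the other 11 (7.11-fold). Mylpf encodes the fast regulatory light chain, whose promoter is shown above. Its levels were 7.90, 6.54, 5.96 and 7.20 in 344SQ, 10.15, 7.04, 7.55 and 6.47 in 393LN, and 7.59, 7.12, 7.91 and 7.51 in 393P. Here 1 array stood well apart, 2.95 above the median of the others (7.75-fold). Myh2, the myosin of type IIa fibres, reached 9.08 on 393LN replicate 1 and lay between 6.65 and 7.77 on the other 11. Myh4 (type IIb fibres) and Myh8 (the perinatal form) were 0.54 and 0.84 above the median of the others there, though another Myh4 probe set was 2.82 above it. Myh1, Myh2, Myh4 and Myh8 are consecutive protein-coding neighbours on chromosome 11 together with Myh3 and Myh13 in the same annotation. Their sequences are closely alike, so probe sets of one may read another.

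Fast troponins of the thin filament, Tnnt3 and Tnnc2, had the largest excess of any muscle member. Tnnt3, the fast troponin T that ties the complex to tropomyosin, was 7.51, 4.96, 5.48 and 8.10 on the 344SQ arrays, 9.83, 6.58, 6.57 and 6.15 on the 393LN arrays, and 5.60, 6.24, 7.13 and 6.26 on the 393P arrays. Its excess on 393LN replicate 1 was 3.57 (11.9-fold), and 344SQ replicates 4 and 1 came next. Tnnc2, the fast calcium-binding subunit, was 8.01, 6.47, 6.18 and 8.08 in 344SQ, 10.26, 7.13, 6.98 and 6.63 in 393LN, and 6.68, 7.05, 7.98 and 7.27 in 393P, an excess of 3.21 (9.27-fold). Tnni2, the fast inhibitory subunit, was 7.22, 5.56, 5.02 and 7.62 in 344SQ, 9.44, 7.13, 7.52 and 6.70 in 393LN, and 6.68, 7.59, 7.99 and 7.22 in 393P, an excess of 2.22 (4.66-fold). All 3 fast subunits thus shared the high array, and all 3 were at least 1 unit lower on 344SQ replicates 2 and 3 than on 344SQ replicates 1 and 4. The slow subunits rose less above the rest: Tnnt1 by 1.12 (2.17-fold) and Tnnc1, which heart muscle also uses, by 0.73 (1.66-fold). Acta1, skeletal alpha-actin, was 11.10, 10.10, 9.93 and 10.85 in 344SQ, 11.68, 10.18, 10.16 and 10.13 in 393LN, and 9.60, 10.45, 10.87 and 10.67 in 393P. Its excess was 1.50 (2.82-fold), and 344SQ replicate 1 came next.

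Among Z-disc genes, Actn3, the alpha-actinin of fast fibres, stood apart most. It reached 9.40 on 393LN replicate 1, against 7.17 to 8.20 on the other 11 arrays, an excess of 1.79 (3.46-fold). The others moved by less than 1 unit: Myoz1 (a calcineurin-binding Z-disc protein) by 0.90, Des (desmin, the intermediate filament of muscle) by 0.43, Actn2 by 0.38 and Tcap (telethonin, which caps titin) by 0.30. Calcium-handling genes, Pvalb apart, were highest on the same array. Ryr1, the calcium release channel, was 7.30 there and 5.55 to 6.42 elsewhere, an excess of 1.47 (2.78-fold). Casq1, the calcium store of the reticulum, had an excess of 0.97, Atp2a1, the fast-fibre calcium pump, of 0.76, and Cacna1s, the voltage sensor of the T-tubule, of 0.65. Pvalb, at 8.20 on that array, had none (0.00).

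Both genes of energy and oxygen supply followed the fast fibre genes. Ckm, muscle creatine kinase, was 8.42, 7.98, 7.37 and 8.47 in 344SQ, 9.97, 7.75, 7.59 and 7.81 in 393LN, and 8.20, 7.48, 7.95 and 7.76 in 393P, an excess of 2.17 (4.49-fold). Mb, myoglobin, was 6.68, 5.40, 6.31 and 6.82 in 344SQ, 8.87, 6.93, 6.11 and 6.43 in 393LN, and 5.86, 6.75, 7.81 and 6.06 in 393P, an excess of 2.44 (5.41-fold). For each gene 1 array was above all the rest, and the lines otherwise overlapped. Myog, the transcription factor myogenin, varied less, with 7.79 on the highest array and 6.33 to 7.39 on the other 11.

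**Figure D3:**
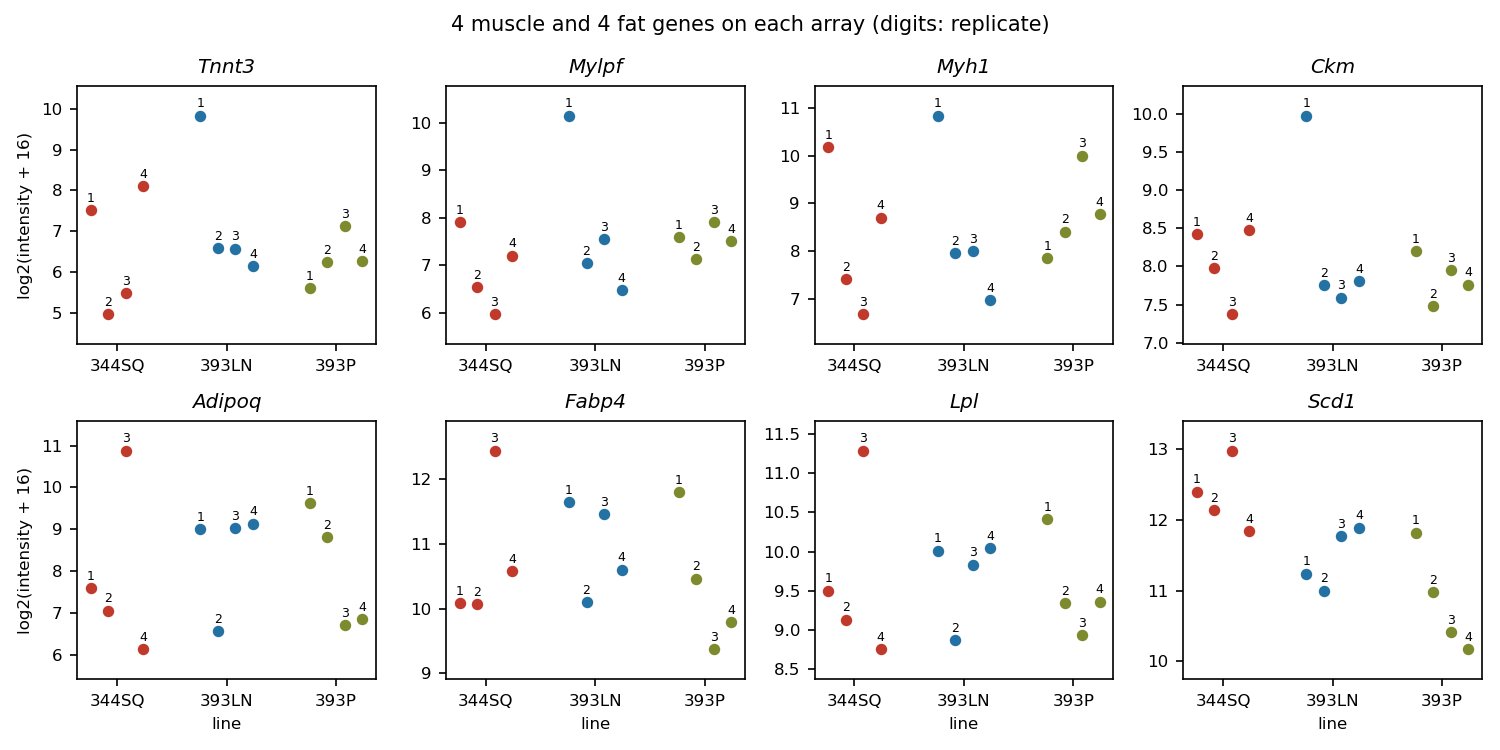
Levels of 4 muscle genes (Tnnt3, Mylpf, Myh1 and Ckm, top) and 4 fat genes (Adipoq, Fabp4, Lpl and Scd1, bottom) on each array by line, in log2(intensity + 16), each panel with its own axis. Points are arrays with their replicate number. All 4 muscle genes peak on 393LN replicate 1 and all 4 fat genes on 344SQ replicate 3, and the 4 344SQ arrays lie above the 4 393P arrays only for Scd1.

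Fat genes followed another order of arrays. Adipoq, the hormone adiponectin, was 7.59, 7.05, 10.88 and 6.13 in 344SQ, 9.0, 6.57, 9.03 and 9.13 in 393LN, and 9.63, 8.81, 6.70 and 6.85 in 393P. It was high on 1 array of 344SQ, 3 of 393LN and 2 of 393P, and its level on 344SQ replicate 3 was 3.30 above the median of the other 11 (9.83-fold). Lep, leptin, was at or near the floor on every array (4.09 to 4.20), and Retn, resistin, stayed between 8.60 and 8.99. The Lep and Retn probe sets thus did not show the pattern of Adipoq. A signal at the floor or nearly flat cannot tell whether the transcripts followed it.

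Of the lipid-droplet genes, Plin4 (perilipin 4) and Cidec (which promotes fusion of droplets) were highest on 344SQ replicate 3. Plin4 was 6.23, 6.17, 8.26 and 5.59 in 344SQ, 6.46, 5.61, 6.79 and 6.53 in 393LN, and 7.04, 5.95, 5.41 and 5.92 in 393P, an excess of 2.09 (4.24-fold). Cidec was 7.73, 6.40, 8.68 and 6.63 in 344SQ, 7.56, 6.44, 7.61 and 7.52 in 393LN, and 6.62, 8.30, 6.82 and 7.53 in 393P, an excess of 1.16 (2.23-fold). Both were low on 393LN replicate 2, as was Adipoq. Cidea, a CIDE protein of brown fat and sebaceous glands, was instead highest there, at 7.21, followed by 7.03 on 344SQ replicate 3. On 393LN replicate 2 the mean of 10 genes of epidermis and hair was 9.07, against 6.32 to 7.81 on the other arrays, with Krt1 at 10.31 and Krt25 at 8.52. The part of skin in the Cidea level was not tested.

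The lipid uptake and synthesis genes were highest on 344SQ replicate 3, Pck1 only narrowly. Fabp4, the adipocyte fatty acid carrier, was 10.08, 10.07, 12.44 and 10.58 in 344SQ, 11.64, 10.10, 11.46 and 10.60 in 393LN, and 11.80, 10.46, 9.37 and 9.79 in 393P, an excess of 1.99 on 344SQ replicate 3 (3.97-fold). Lpl, lipoprotein lipase, was 9.50, 9.13, 11.29 and 8.75 in 344SQ, 10.01, 8.87, 9.83 and 10.04 in 393LN, and 10.41, 9.34, 8.93 and 9.36 in 393P, an excess of 1.93 (3.82-fold). Both genes ranked 393P replicate 1 second. Endothelial cells and macrophages also make Fabp4 and Lpl. On 344SQ replicate 3 the mean of 10 endothelial genes was 9.44, within a range of 8.95 to 9.54 and 0.28 above the median of the other 11, and that of 10 macrophage genes was 11.11, within 10.48 to 11.91. Their part in the Fabp4 and Lpl levels was not tested. Pck1, a gene of glyceride and glucose synthesis, moved by only 0.21.

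**Figure D4:**
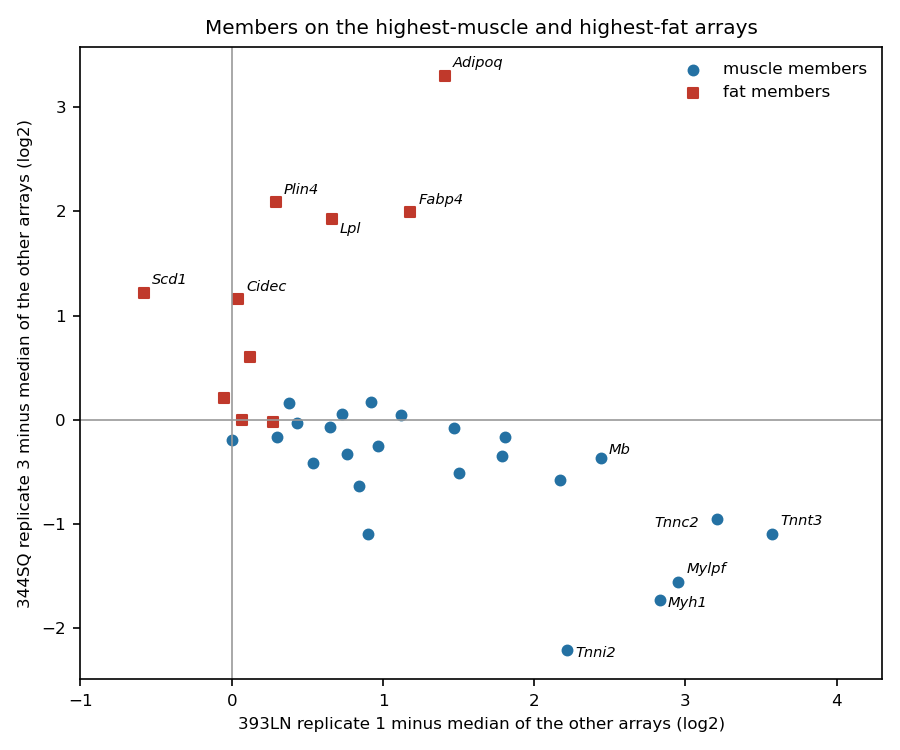
Each measured member as 1 point, with its level on 393LN replicate 1 (horizontal axis) and on 344SQ replicate 3 (vertical axis), both as the difference from the median of the other 11 arrays in log2 units. Circles are muscle members and squares fat members, and some members with large differences are named. Muscle members spread to the right, up to 3.57 for Tnnt3, and fat members upwards, up to 3.30 for Adipoq.

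Pairs of members were compared over the arrays. Across the 12 arrays the median Pearson r was 0.57 over the 276 pairs of muscle members, 0.24 over the 45 pairs of fat members and -0.06 over the 240 pairs of a muscle and a fat member. These are descriptions, and all pairs share the same 12 arrays. Without 393LN replicate 1 the median was 0.25 over the muscle pairs, 0.16 over the fat pairs and -0.24 over the mixed pairs. Without 344SQ replicate 3 the medians were 0.60, 0.22 and 0.11, so that of the mixed pairs changed sign.

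Differences between the lines were small beside this spread among the arrays of a line. The median SD within a line was 0.49 over the muscle members and 0.69 over the fat members, against 0.23 over all genes. Of the 24 muscle members, 11 (45.8%) had an SD above the 95th percentile of all genes, as did 6 of the 10 fat members (60.0%), where 5.0% of all genes do by construction. The lines were compared with limma over all 18193 genes, and rises or falls are named only where the Benjamini-Hochberg adjusted p was under 0.05.

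In 344SQ against 393P, 10.5% of all genes passed the test, and no muscle member did (0 of 24). At an unadjusted p under 0.05 there were 0 of 24 muscle and 1 of 10 fat members, against 4292 of all 18193 genes. Of the 10 fat members, 1 rose and none fell. The 4 344SQ and 4 393P arrays did not overlap for 0 muscle members and 1 fat member, where 16.7% of all genes did not. The median change was -0.01 over the muscle members and 0.04 over the fat members, against -0.00 over all genes. Standard errors were wide for the genes that varied most, so sizeable differences in them could not be resolved with 4 arrays a line. Adipoq differed by -0.09 ± 0.99 (SE), Tnnt3 by 0.20 ± 0.84 and Myh1 by -0.51 ± 0.86.

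The fat member that rose was Scd1, stearoyl-CoA desaturase, which makes monounsaturated fatty acids in fat, liver and many tumour cells. Its levels were 12.40, 12.14, 12.98 and 11.84 in 344SQ, 11.24, 11.00, 11.77 and 11.89 in 393LN, and 11.82, 10.98, 10.41 and 10.17 in 393P. All 4 344SQ arrays were above all 4 393P arrays, including 344SQ replicate 4, whose fat mean of 7.55 was the lowest of that line. The means were 12.34 ± 0.49 and 10.84 ± 0.73 (SD, n = 4), a change of 1.50 ± 0.35 (SE) or 2.82-fold, with a limma adjusted p of 0.0179. Of the 12 fits that each left out 1 array, 9 kept the call. It was lost without 344SQ replicate 3 (change 1.28, limma adjusted p 0.0549), 393P replicate 3 (1.35, 0.0585) or 393P replicate 4 (1.27, 0.0515). The second Scd1 probe set was 9.75, 9.54, 9.60 and 9.39 in 344SQ, 8.12, 8.01, 8.38 and 8.56 in 393LN, and 8.34, 8.12, 8.20 and 7.95 in 393P. There the 344SQ arrays lay above every array of both other lines, and 344SQ replicate 3 was not the highest. Its change was 1.42 ± 0.14 against 393P (limma adjusted p 0.000105, over all single-symbol probe sets) and 1.30 against 393LN (0.000257), and both calls held in all 12 fits that left out 1 array.

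In 344SQ against 393LN, 10.9% of all genes passed the test, but 0 of 24 muscle and 0 of 10 fat members did. At an unadjusted p under 0.05 there were 1 of each, Myoz1 (-0.75, limma adjusted p 0.0894) and Scd1 (0.87 ± 0.35, limma adjusted p 0.142). Of all 18193 genes, 4670 were under that unadjusted threshold. With the mean of all its probe sets Scd1 passed, at 1.08 and a limma adjusted p of 0.012. With the probe set used, the lines overlapped for every measured member, where 17.4% of all genes did not overlap. The other probe set of Scd1 and that of Myoz1 were higher on every 344SQ array than on every 393LN array. The median change was -0.22 over the muscle members, with 18 of 24 lower in 344SQ, against -0.02 over all genes. The difference in muscle mean, -0.27, turned to 0.11 without 393LN replicate 1 and to 0.26 without both that array and 344SQ replicate 3. Without 393LN replicate 1, 1 muscle member passed, the slow troponin Tnnc1, higher in 344SQ by 0.44 (limma adjusted p 0.0296, against 0.19 and 0.608 with all arrays). This comparison and the one above share the 344SQ arrays.

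In 393LN against 393P, 2.45% of all genes passed, and 0 of 24 muscle and 0 of 10 fat members did. At an unadjusted p under 0.05 there were 0 muscle and 0 fat members, against 2851 of all 18193 genes. No member was free of overlap, where 10.3% of all genes were. The median change was 0.23 over the muscle members, with 19 of 24 higher in 393LN, and 0.14 over the fat members, against 0.01 over all genes. The difference in muscle mean, 0.20, turned to -0.18 without 393LN replicate 1. Tnnt3 had the largest difference of the muscle members, 0.97 ± 0.84 (limma adjusted p 0.653), and left out 1 array at a time it ranged from 0.12 to 1.35. The same range for Mylpf was -0.52 to 0.71.

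**Figure D5:**
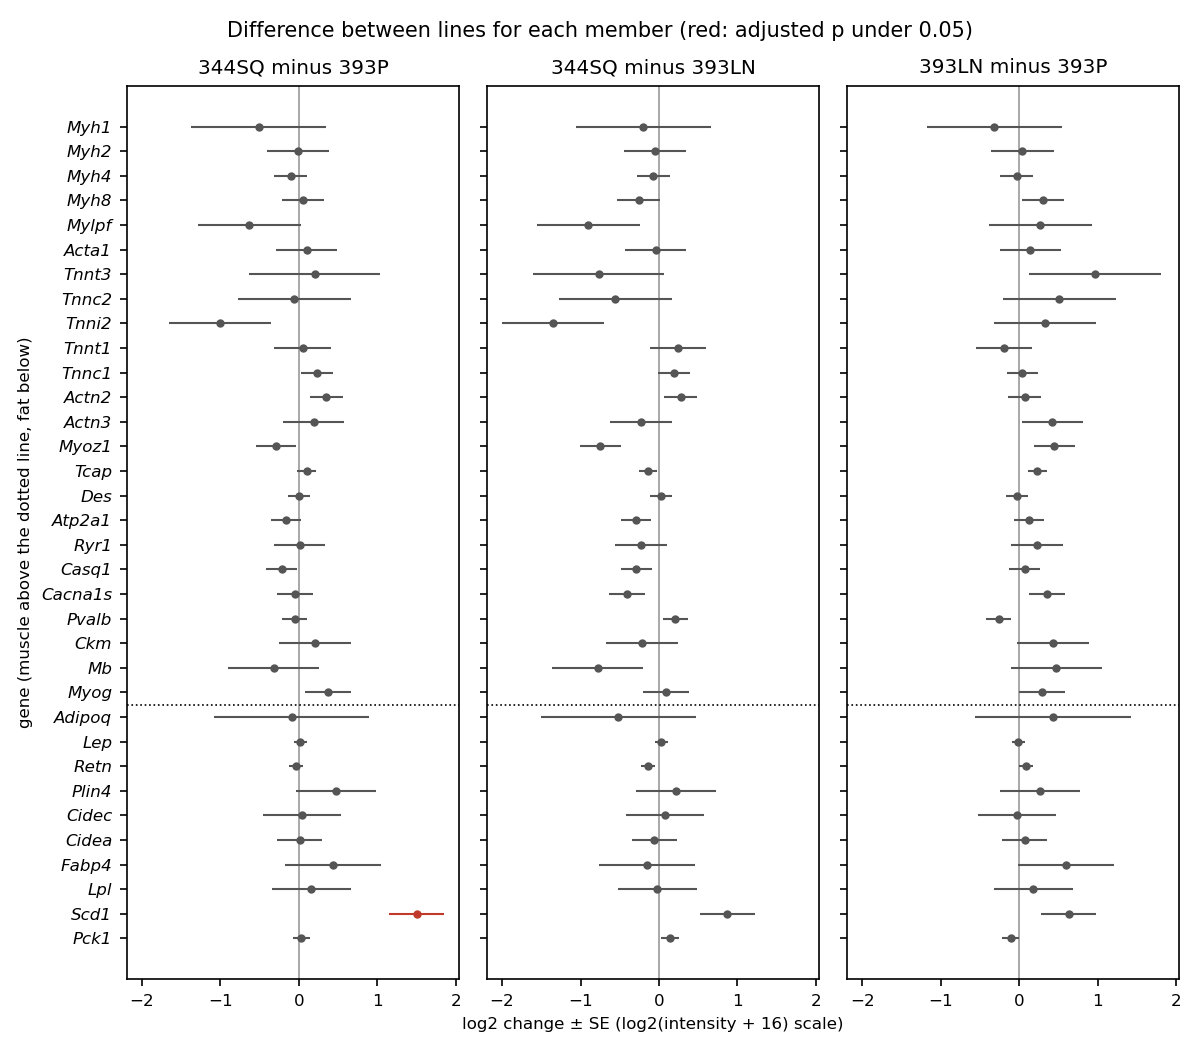
Difference between lines for each measured member in the 3 comparisons, as the log2 change with its standard error (horizontal bars) from limma. Only Scd1 in 344SQ against 393P, 1.50 ± 0.35, has an adjusted p under 0.05 (red), and the widest bars belong to genes that varied most among arrays of a line, such as Adipoq with an SE of 0.99.

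Other genes of the 2 tissues, outside the members, followed the same arrays in part. Of 38 further skeletal muscle genes, 18 were highest on 393LN replicate 1, led by the fast myosin-binding protein Mybpc2 (9.13, against a median of 6.03 on the other 11), the fast light chain Myl1 (9.83 against 7.32), the giant thin-filament protein Neb (8.14 against 5.73) and Klhl41, a sarcomere assembly factor (8.52 against 6.19). Of the 8 regulators of myogenesis, Myf6, expressed in mature fibres, reached 7.40 there against 5.59. None of the other regulators was highest on that array, where they differed from the median of the other 11 by -0.09 (Musk) to 0.38 (Pax7). The heart muscle list of 10 genes varied by only 0.24 in its mean over the 12 arrays. Single heart genes varied more, with ranges of 2.58 for Myl7, which was lowest on 393LN replicate 1, and 2.27 for Tnni3. Of 23 further adipocyte genes, 9 were highest on 344SQ replicate 3, led by the fatty acid translocase Cd36 (10.31 against 8.0), the carbonic anhydrase Car3 (13.09 against 11.03) and Sncg (6.84 against 5.27).

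A few of these further genes differed between lines. Of those named below, Jph1, Myh7 and Pparg were highest on 344SQ replicate 3, and Eno3 and Musk were lowest there. Xirp1, Mylk2 and Dgat2 were neither. Of the 38 muscle genes, 2 rose and 0 fell in 344SQ against 393P, 4 rose and 1 fell against 393LN, and 1 rose in 393LN against 393P, where 10.5%, 10.9% and 2.45% of all genes were called in either direction. Jph1, a junction protein of muscle membranes, was 7.93, 8.11, 8.18 and 8.16 in 344SQ, 7.56, 5.71, 6.31 and 6.95 in 393LN, and 5.66, 7.06, 7.07 and 6.84 in 393P. It rose by 1.44 against 393P (limma adjusted p 0.0306) and by 1.46 against 393LN (0.028), each call holding in 6 of 12 fits with 1 array left out. Myh7, the slow myosin heavy chain, rose by 0.61 against 393P (held in 3 of 12) and by 0.70 against 393LN (9 of 12). Eno3, muscle enolase, fell by 1.28 against 393LN (limma adjusted p 0.00275) and was 0.90 higher in 393LN than in 393P (0.048, a call held in 2 of 12 such fits). Xirp1 and Mylk2 rose by 0.64 and 0.82 against 393LN, calls held in 4 and 3 of 12 such fits. Of the 8 regulators, Musk, the receptor kinase of the neuromuscular junction, fell by 0.79 against 393P and by 0.83 against 393LN. Of the 23 adipocyte genes, Pparg rose in 344SQ in both comparisons, by 0.76 (limma adjusted p 0.00599) and 0.95 (0.00168), with calls that held in all 12 fits. Pparg, the nuclear receptor that drives adipocyte differentiation, was 8.63, 8.48, 8.64 and 8.39 in 344SQ, 7.49, 7.24, 7.94 and 7.66 in 393LN, and 7.82, 7.66, 7.63 and 7.98 in 393P. Like the second Scd1 probe set, it was even across the 344SQ arrays. Dgat2, an enzyme of triglyceride synthesis, fell by 0.55 against 393LN, a call held in 4 of 12 fits.

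Other lists of cell types a tumour sample can hold gave 0 to 3 calls each. Of all genes, 10.5% and 10.9% were called in 344SQ against 393P and 393LN, and 2.45% in 393LN against 393P. Of 8 brown fat genes, Cox7a1 fell by 1.26 in 344SQ against 393P, and of 10 heart genes Myl7 fell by 1.82. In 393LN against 393P Myl7 fell by 1.65, a call held in 8 of 12 fits. Of 9 smooth muscle genes, Actg2 fell by 1.13 in 344SQ against 393P (held in 7 of 12), and of 5 Schwann cell genes Cnp fell by 0.63 against 393P and by 0.86 against 393LN. Of 10 genes of epidermis and hair, Tchh and Lor fell in 344SQ against both lines, Tchh in all 12 fits of each comparison and Lor in 2 of 12 against 393P and 8 of 12 against 393LN. Of 10 macrophage genes, 3 fell against 393P (Aif1, Tyrobp and Fcer1g) and 2 against 393LN (Aif1 and Tyrobp), shares above those of all genes. The median change over the 10 was -0.68 against 393P and -0.55 against 393LN, with 9 lower in 344SQ each time. Fcer1g held in 5 of 12 fits and Tyrobp against 393LN in 3 of 12. None of the 6 red cell and 10 endothelial genes was called in the 3 comparisons.

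Several members have more than 1 probe set, and these did not always move alike. For Myh4 the probe set used was nearly flat, but another was 8.09 on 393LN replicate 1 against a median of 5.27 on the other 11 arrays, an excess of 2.82. For Pck1 the probe set used moved by 0.21 on 344SQ replicate 3, while another reached 8.21 there, an excess of 2.32, and another peaked at 8.09 on 393P replicate 1. The excess was repeated in a second probe set for Myh1 (2.68), Tnni2 (2.01), Fabp4 (2.10) and Lpl (2.00). Further probe sets of Myh1 (0.47), Tnni2 (0.12) and Fabp4 (-0.48 and 0.31) did not repeat it. It was also absent from the other probe sets of Ckm (-0.17), Mb (-0.23), Ryr1 (0.07) and Des (0.09). For Myoz1 the second probe set was higher in 344SQ, by 1.11 against 393P (limma adjusted p 0.0526) and 1.12 against 393LN (0.0501), where the one used was lower.

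The genes outside every list whose levels most resembled each mean were found among 1080 named genes with a range of at least 2 units over the 12 arrays. For the muscle mean, Fam90a1a (r = 0.861 over 12 arrays), the small heat shock protein Cryab (0.808), which muscle expresses strongly, Cd300lb (0.749) and Rgs16 (0.749) came first, then Calcb (0.742), Ptpn22 (0.730), Adgra1 (0.723) and Zfand4 (0.718). All 8 were highest on 393LN replicate 1, and Calcb, a neuropeptide of the CGRP family, reached 10.75 there. Without that array r was between -0.24 and 0.40 for these 8 genes. For the fat mean, Ces1d, a carboxylesterase of fat and liver (0.975), came first, then Ms4a1 (0.928), Ighv14-2 (0.912), Cd79a (0.901), Cyp2e1 (0.888), Cd79b (0.879), Hp (0.872) and Itih4 (0.859). Ms4a1, Cd79a and Cd79b are genes of B cells and were 9.21, 8.98 and 8.72 on 344SQ replicate 3, so B-cell transcripts were high on the array where fat transcripts were. Without that array r was between 0.64 and 0.94 for these 8 genes. These coefficients are descriptions over arrays that share 1 extreme sample.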

How the data were processed

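Total RNA of 12 tumour samples, 4 of each line, was hybridised to 1-colour Affymetrix arrays after labelling with biotin, per the labels' protocols. The deposited values are linear intensities between 1 and 21921, and the sources used here do not name the software behind them. Their log2 values have 2 decimals in 100% of cases (tolerance 1e-08), so the authors' table was once in log2 form. The chip named in the design text holds fewer probe sets than the 45101 of the table. No further normalization was applied, and no other value columns were present (0). The platform annotation gives 34945 probe sets a single gene symbol, 932 several and 9160 none, beside 64 controls. The single-symbol sets cover 18193 genes, each represented by its brightest set, with no filter on dim ones.

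Values were taken as log2(intensity + 16), so folds understate changes near the floor. One model with 3 line means was fitted to all 12 arrays with limma 3.58.1 (lmFit and eBayes, 9 residual degrees of freedom) in R 4.3.3, with Benjamini-Hochberg adjustment over 18193 genes, and was checked on simulated data. For probe sets other than the brightest, a second fit took all single-symbol probe sets together, the brightest included, with adjustment over 34945. The number of arrays limits the precision. Means over members, ranges and correlations are descriptions with no test.

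The members and all 11 further lists (skeletal muscle, regulators of myogenesis, adipocyte, brown fat, heart, smooth muscle, red cell, epidermis and hair, Schwann cell, endothelial, macrophage) were chosen with earlier results of these data known. By rule, all members were named, with the called genes (up to 4 a comparison) and the 3 widest-ranging genes of each further list, and the 8 genes most like each mean. Not every gene the rule allows is described. Alternatives were the normalization, the pseudocount, a filter on dim genes, the choice of probe set, the prior, array weights, the arrays in the fit and leaving out each array. Promoter windows are from the RefSeq table for GRCm38.p6.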

Additional observations from a re-analysis of the deposited data

Results flagged for a closer look

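Dixon's 95% criterion was applied to 108 sets of 4 arrays (each measured member and both means in each line). Chance flags about 1 in 20 independent sets, but the members were chosen with earlier results known, so that rate is no yardstick here. In 14 sets, 1 array lay apart from the other 3. Of these, 11 were on 393LN replicate 1. The muscle mean was 8.65 there against 7.03 to 7.18 on the other 393LN arrays. Acta1 was 11.68 against 10.13 to 10.18, Tnnt3 9.83 against 6.15 to 6.58, and Tnnc2 10.26 against 6.63 to 7.13. The slow troponins Tnnt1 and Tnnc1 were 7.76 against 5.96 to 6.21 and 8.20 against 7.13 to 7.30. Actn3 was 9.40 against 7.30 to 7.63, Tcap 9.08 against 8.81 to 8.85, Casq1 8.15 against 7.16 to 7.19, and Ckm 9.97 against 7.59 to 7.81. Lep was 4.16 against 4.09 on the other 3, which were tied at the floor, so any higher value would be flagged.

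On 393LN replicate 2, Adipoq was low, at 6.57 against 9.0 to 9.13 on the other 393LN arrays, and so was Cidec, at 6.44 against 7.52 to 7.61. On 393P replicate 1, Lep was 4.20 against 4.09, again with the other arrays of the line tied at the floor. Members of a list share their arrays, so these sets are not independent of each other.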

How the results depend on the processing

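Over the alternatives run for each of the 102 results of a single member in a single comparison, 2240 of 2247 values kept their side of the threshold, 4 lost the call and 3 gained it. No called value changed sign (0), but 190 uncalled values, in 62 of the 102 results, had the other sign than on all arrays with the main settings. The 4 lost calls were all of Scd1 in 344SQ against 393P, the only called result of the 102. The other results had no call to lose, and the 3 gained calls were of Scd1 and Tnnc1 in 344SQ against 393LN. Fat members called higher in 344SQ against 393P numbered 1, and 0 to 1 when 1 array was left out. Muscle members called higher in 344SQ against 393LN numbered 0, and 0 to 1 when 1 array was left out. With the mean of all probe sets of a gene, 1 fat member was called higher in 344SQ against 393LN. The range of the muscle mean over the arrays was 1.85, and 0.81 to 1.85 when 1 array was left out; that of the fat mean was 1.74, and 0.94 to 1.74. An alternative chosen after seeing the data left out both 393LN replicate 1 and 344SQ replicate 3. It gave 0 fat members called higher in 344SQ against 393P, where Scd1 changed by 1.28 (limma adjusted p 0.0669), and 1 muscle member called higher in 344SQ against 393LN, Tnnc1 at 0.48 (0.0396). The difference in muscle mean between 344SQ and 393LN, -0.27 on all arrays and -0.43 to 0.11 when 1 was left out, was then 0.26, the range of the muscle mean 0.60 and that of the fat mean 0.94. No paired analysis was possible because the labels carry no replicate numbers shared between lines. The signal of Lep lies at the floor, which limits what can be said of it.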
